A study of Mus musculus with 4 samples.

Results

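Genes of the early secretory route were described in molar teeth of Swiss Webster mouse pups. The list held 52 genes that carry a new protein into the endoplasmic reticulum (ER), fold it there, send it to the Golgi in COPII vesicles, bring escaped residents back in COPI vesicles, and report overload through the unfolded protein response. The rule that chose them used gene symbols and function, with earlier results of these data known, and they come from 18194 genes measured on the arrays. A probe set naming the gene alone was found for 50 of the 52, and the probe set of highest mean log2 signal stood for the gene. Srp54a and Sec61g were named only by probe sets that also name other genes.

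The tissue was a single pool of molars, pulled from 60 pups of both sexes aged 1 to 10 days after birth, with no treatment named in the labels. Each of 4 Affymetrix Mouse Genome 430 2.0 arrays received RNA of that pool and gave every probe set a MAS5 signal intensity in 1 colour. The arrays form 1 group, so their spread is technical and holds no difference between animals, and the p-values rest on it alone. Control tissues, 16 by the design text, are not analysed here, and no tissue is set against another.

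Proteins bound for secretion are recognised as they leave the ribosome and threaded through the Sec61 channel into the ER, where chaperones, disulfide isomerases and sugar-adding enzymes act on them. In the molar crown at this age, ameloblasts secrete enamel proteins and odontoblasts secrete collagen-rich dentin, so both layers are specialised for this route. When unfolded protein accumulates, 3 ER sensors encoded by Ern1, Eif2ak3 and Atf6 raise the output of chaperone genes and slow translation. In a pool of whole teeth, fewer cells of a type and less RNA per cell cannot be told apart, and the signals are not assigned to a cell layer.

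A gene was counted above background when any probe set naming it alone exceeded, on all 4 arrays, the 95th percentile of 86 probe sets for olfactory, vomeronasal and taste receptors on that array. This threshold was 996, 1097, 1295 and 1266 signal units on arrays 1 to 4. The labelled tissue was checked with 5 tooth genes (Amelx, Ambn, Enam, Dspp and Dmp1), and all 5 were above background. Any pair of arrays, 6 in all, had a Pearson's r of 0.968 to 0.979 in log2 signal across the 14846 probe sets over the threshold on every array. Probe sets differ in affinity, so signals of different genes are not an order of mRNA amounts.

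Nearly the whole route was above background: 49 of 50 measured genes, compared with 51.6% of all 18194 genes. The one-sided limma test of signal over threshold, adjusted by Benjamini-Hochberg over all genes, also called 49, against 51.1% of all genes. The largest limma adjusted p among the 49 was 1.66e-06. This test uses the same arrays and threshold as the count, so it adds no independent support. By step, the counts were 13 of 13 for targeting and translocation, 13 of 13 for folding, 8 of 9 for COPII and cargo receptors, 6 of 6 for COPI and retrieval, and 9 of 9 for stress sensors and factors. Well-studied genes often have several probe sets, which raises the chance of a call. With 1 probe set, 19 of 20 secretory-route genes passed, against 35.2% of 9182 such genes overall.

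The signals were also high as a group. The median of the genes' mean log2 signals was 14.54 for the 50 secretory-route genes and 10.69 for all genes, and 37 of the 50 lay more than 10-fold over the threshold on every array, compared with 8.29% of all genes. By step, all 6 COPI and retrieval genes and 12 of 13 translocation genes passed that line, against 9 of 13 folding genes, 6 of 9 COPII and cargo receptor genes and 4 of 9 stress genes. These counts describe brightness on these arrays, and no test was applied to the lists.

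**Figure D1:**
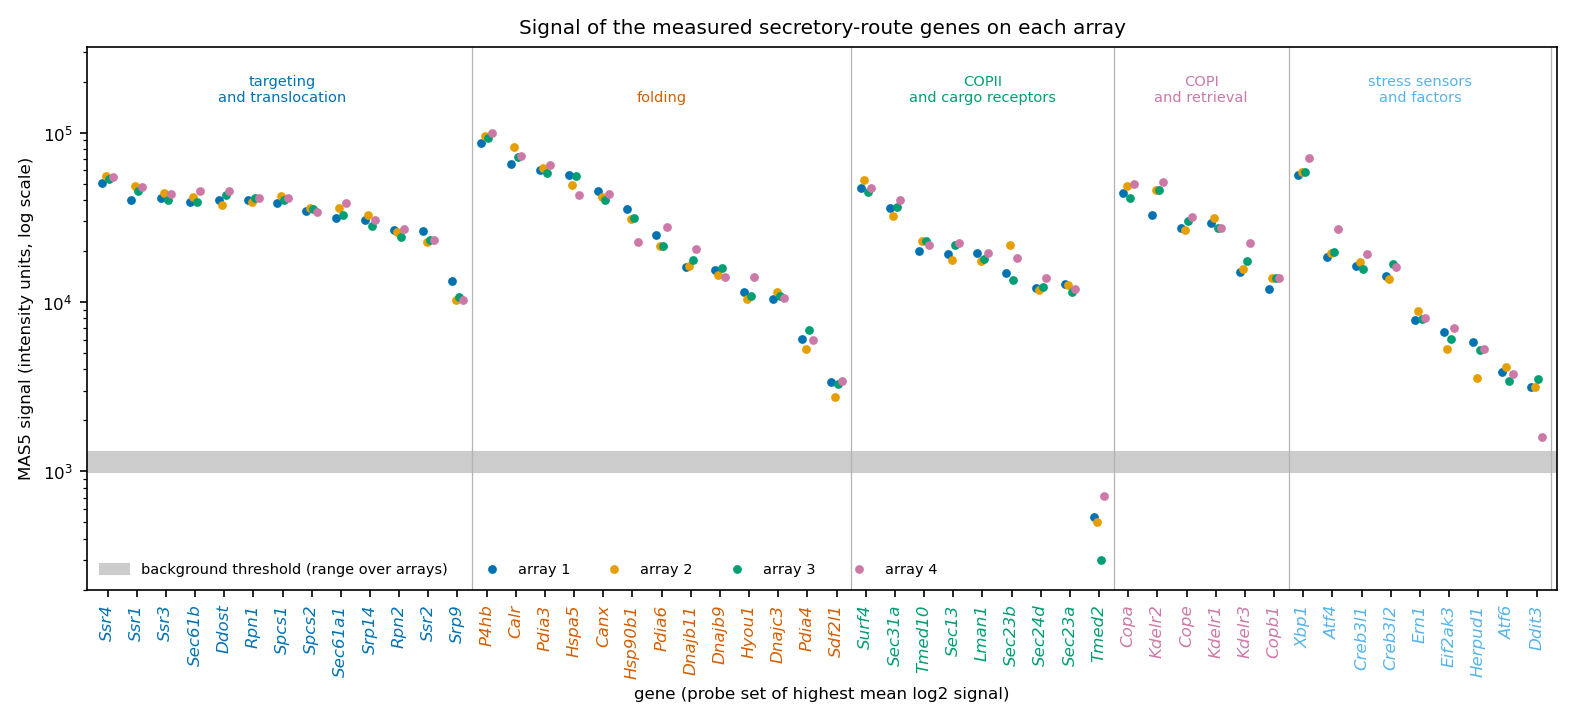
Signal of each measured gene on arrays 1 to 4 (vertical log axis, MAS5 intensity units), ordered by mean log2 signal within each step, with the grey band giving the range of the background threshold over arrays. All points of 49 genes lie above the threshold of their array, Ddit3 comes closest to it on array 4, and Tmed2 lies below it on every array.

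**Figure D2:**
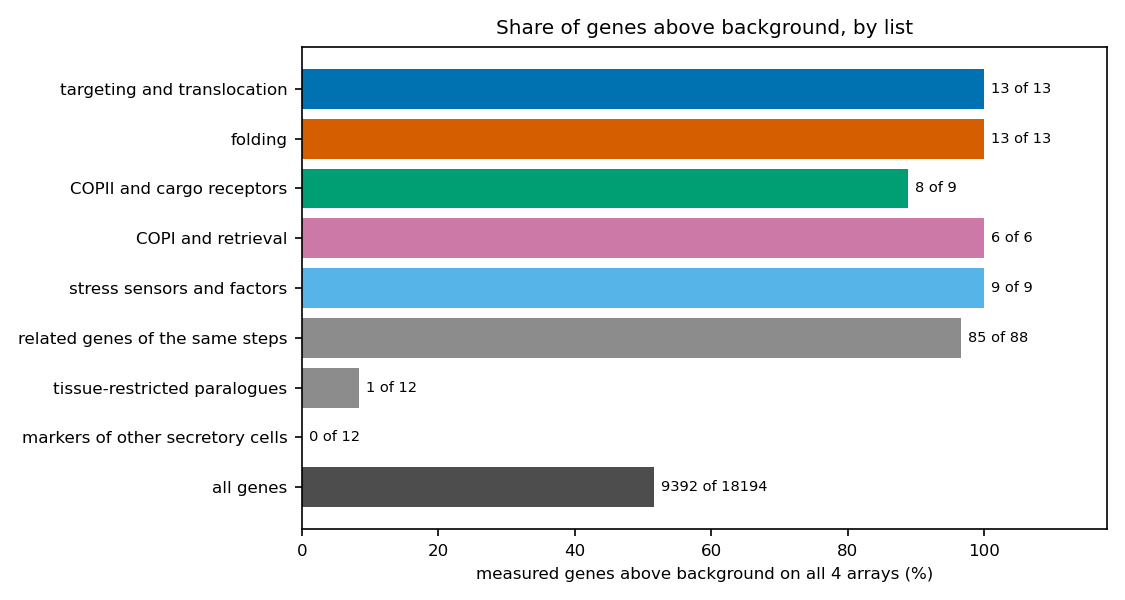
Share of measured genes above background on all 4 arrays (horizontal axis, percent), with the count at the end of each bar. The bars of the 5 steps reach 88.9% to 100%, against 51.6% for all genes, and the tissue-restricted paralogues reach 8.33%.

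Entry into the ER begins with the signal recognition particle, which pauses translation and brings the ribosome to the membrane. Srp14, which pairs with Srp9 in the part of the particle that slows elongation, had signals of 30492, 32425, 28108 and 30466 on arrays 1 to 4. Srp9 had 13219, 10319, 10719 and 10240, with array 1 the highest in this probe set. Its other probe set, also above background, had 6570, 6838, 8353 and 6590, with array 1 the lowest. For the GTPase subunit encoded by Srp54a, the probe sets also name the copies Srp54b or Srp54c. Of these 3 probe sets, 2 were above background, at 29950 ± 2189 and 15734 ± 2643 (SD, n = 4), and the other was over the threshold on 0 arrays, at 552 ± 222.

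The channel followed. Sec61a1, the pore subunit, had 31393, 35858, 32558 and 38155, and all 6 of its probe sets were above background. Sec61b, a small subunit beside the pore, had 39110, 41867, 39129 and 45339, and a further probe set that it shares with Gm10320 was not above background. The third subunit, Sec61g, is represented by a probe set that also names Gm11575 and Gm10177, with 26744, 31411, 23891 and 35627.

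Translocon-associated protein, made of the 4 subunits Ssr1 to Ssr4, helps certain chains into the channel. Ssr4 had 50209, 55675, 53300 and 54470. Ssr1 had 40051, 48339, 45239 and 47494, and Ssr3 had 40881, 43718, 39869 and 43412. The fourth gene, Ssr2, had 26370, 22560, 23324 and 23210. In these probe sets the arrays spread little, with SDs of log2 signal of 0.06 for Ssr4, 0.12 for Ssr1, 0.07 for Ssr3 and 0.10 for Ssr2. A further Ssr3 probe set, also above background, had 54150, 36887, 58053 and 25866, an SD of log2 signal of 0.54. In Ssr4, 2 of 3 probe sets were above background. The values above come from a probe set with the suffix _s_at, which marks sequence shared among transcripts. The other of these, the only Ssr4 probe set without such a suffix, had 4207 ± 1294, an SD of log2 signal of 0.40.

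Enzymes that act on the chain as it enters were also above background. Spcs2, a subunit of the signal peptidase that removes the leader, had 34652, 35895, 35315 and 34174, an SD of log2 signal of 0.03. Its partner Spcs1 had 38460, 42009, 40015 and 41006, with 2 of its 3 probe sets above background. Rpn1, Rpn2 and Ddost encode subunits of oligosaccharyltransferase, which attaches N-linked sugars. Rpn1 had 39982, 39068, 41164 and 41289, Rpn2 had 26476, 25946, 24196 and 27041, and Ddost had 39823, 37249, 43034 and 45394. The call for Rpn1 rests on 5 probe sets with the suffix _a_at or _x_at, which mark sequence shared among transcripts and not always among genes. Its only probe set without such a suffix had 123 ± 37.2 and was over the threshold on 0 arrays.

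All 13 folding genes were above background, among them factors for collagen and glycoproteins. P4hb, both a disulfide isomerase and a subunit of the collagen prolyl hydroxylase, had 86215, 95951, 92863 and 99341. Calr, which holds glycoproteins until they fold, had 65105, 81753, 71909 and 72275, and its membrane-bound relative Canx had 44982, 41620, 39840 and 43246. Pdia3, the isomerase that works with both, had 60470, 61960, 57862 and 64594. The isomerases Pdia6 and Pdia4 had 23843 ± 3133 and 6038 ± 651, each with a further probe set over the threshold on 0 arrays.

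The ER chaperone Hspa5 (BiP, the Hsp70 of the ER) had 55841, 48770, 55436 and 43049. Hsp90b1, its Hsp90 counterpart, had 35414, 30747, 31434 and 22620, with array 4 the lowest of these values for both genes. A further Hsp90b1 probe set had 22658, 27078, 21428 and 25405, with array 3 the lowest. Hyou1, which renews the nucleotide on BiP, had 11414, 10411, 10776 and 14056, with array 4 the highest. In Hyou1, 2 of 3 probe sets were above background, and the second of these was highest on array 3. The BiP co-chaperones Dnajb11, Dnajb9 and Dnajc3 had 17656 ± 1961, 14970 ± 878 and 10782 ± 426 (SD, n = 4). Sdf2l1, which works with Dnajb11, had 3389, 2741, 3267 and 3432, the folding gene nearest to the threshold, at 2.50 to 1 on the array where it was closest.

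Some folding genes share a promoter feature. Promoter sequences were not used to choose the list. The genes were chosen by function, the stress response among them, so shares of stress-response elements are not independent of the choice. The ER stress response element (ERSE) is a DNA sequence through which ATF6 and XBP1 act with NF-Y, and its letters are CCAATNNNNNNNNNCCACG. It was searched on both strands of promoters from 250 bases before to 50 bases after the annotated start, in RefSeq sequences of build GRCm38.p6 held here for 44 of the 52 genes. ERSE was found in 6 of 44 secretory-route genes (13.6%), compared with 37 of 27025 genes in the table (0.137%). All 6 were folding genes, out of 12 folding genes with a promoter, and Hsp90b1 had 2 matches. The 30-base windows below run 5′ to 3′ on the strand of the gene, with the fixed letters of the element in capitals. For Calr and the second Hsp90b1 match the element lies on the opposite strand, so the capitals read as its reverse complement.
Hspa5, chr2:34772019-34772048, plus strand: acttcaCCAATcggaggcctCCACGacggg
Hsp90b1, chr10:86705633-86705662, minus strand: acaagcCCAATcgcaaggagCCACGcttcg
Hsp90b1, chr10:86705528-86705557, minus strand: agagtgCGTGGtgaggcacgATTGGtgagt
Canx, chr11:50325795-50325824, minus strand: tattgaCCAATcaccacgctCCACGaagaa
Pdia6, chr12:17266485-17266514, plus strand: cagagaCCAATgaaaggcggCCACGgcgtg
Dnajc3, chr14:118937821-118937850, plus strand: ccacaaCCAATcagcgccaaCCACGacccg
Calr, chr8:84847070-84847099, minus strand: acaacgCGTGGtcgaccctcATTGGcccat

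The matches lay before the start, the nearest 65 bases away in Hspa5 and the farthest 212 bases away in Hsp90b1. A match describes letters and does not show that a factor bound there in these teeth. Outside the list, 4 measured genes of the related and paralogue lists hold ERSE, of which 2 were above background and 2 were not. Syvn1, a ubiquitin ligase of ER-associated degradation, and Creld2, an ER stress-induced gene, were above it on all 4 arrays, at 12288 ± 678 and 5207 ± 598 (SD, n = 4). Ero1b, a disulfide oxidase gene, and Derl3, a gene of ER-associated degradation known from secretory cells, were not. In Ero1b signals were 435, 670, 764 and 840, and in Derl3 they were 963, 1620, 946 and 1647, over the threshold on 2 arrays.

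Export from the ER uses the COPII coat, whose inner layer of Sec23 and Sec24 proteins selects cargo and whose outer layer of Sec13 and Sec31 bends the membrane. Sec31a had 35821, 32256, 36267 and 39941, and Sec13 had 19131, 17625, 21629 and 22177. The inner coat genes Sec23a and Sec24d, both known for roles in collagen export and skeletal development, had 12829, 12568, 11413 and 11978, and 12101, 11738, 12264 and 13813. Sec23b, the close relative of Sec23a, had 14838, 21559, 13554 and 18190. Its SD of log2 signal was 0.30, against 0.08 for Sec23a.

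Cargo receptors carry particular proteins into these vesicles. Surf4, a receptor for soluble cargo, had 46830, 52304, 44441 and 47034. Lman1, a lectin receptor for glycoproteins, had 19570, 17529, 17902 and 19485. In Lman1, 3 of 5 probe sets were above background, and the other 2 were over the threshold on 3 and 0 arrays. Tmed10, a p24 protein that cycles between ER and Golgi, had 19976, 23059, 22954 and 21823.

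Tmed2, the p24 partner of Tmed10, was the only measured gene of the list not above background. Its single own probe set had 537, 504, 299 and 711, all under the thresholds, with an SD of log2 signal of 0.52 and a limma adjusted p of 1. However, 6 further probe sets name Tmed2 together with Gm10698, and all 6 were above background, with means from 14297 to 72046. Those signals cannot be divided between the 2 genes, so the low value describes that probe set and does not show that Tmed2 was off.

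**Figure D3:**
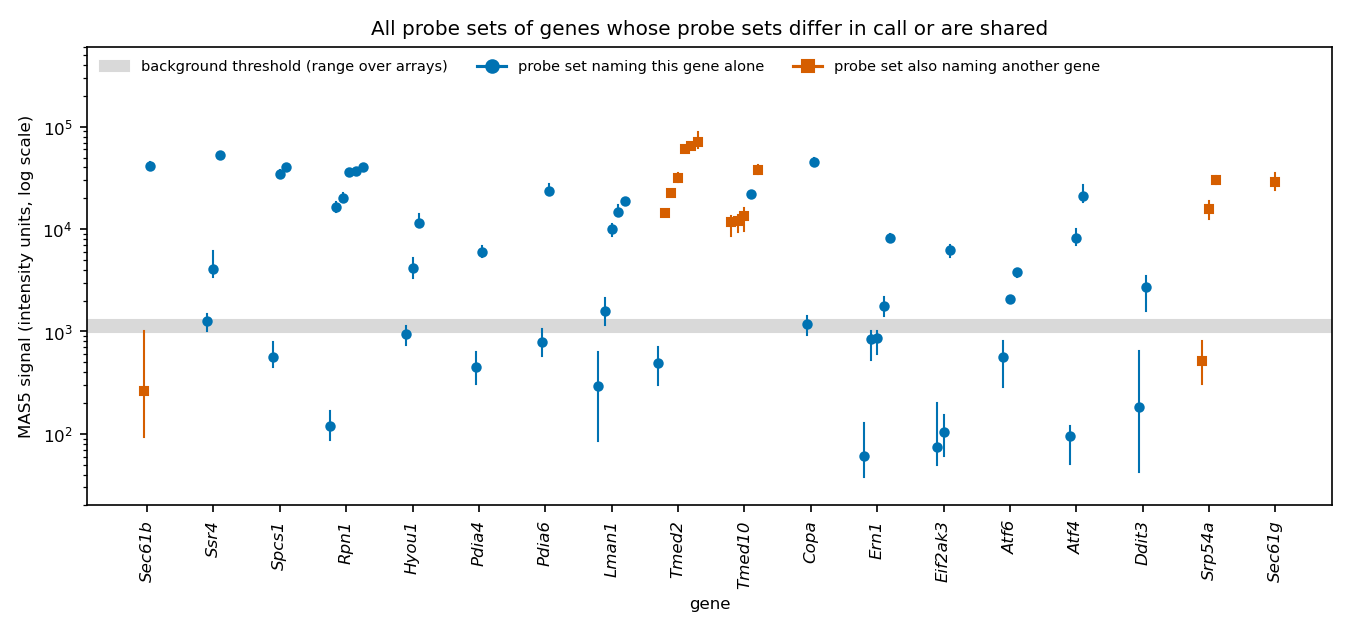
Every probe set of the genes whose probe sets differ in call or are shared with another gene (vertical log axis, MAS5 intensity units; points are geometric means and bars run from the lowest to the highest of the 4 arrays). Blue probe sets name the gene alone and orange ones also name another gene, and for Tmed2 the blue point lies below the grey threshold band while all 6 orange points lie above it.

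The return route was above background in full. Copa, the largest COPI coat subunit, had 43720, 48188, 41000 and 49938, and its other probe set was over the threshold on 2 arrays. The coat subunit genes Cope and Copb1 had 27488, 26536, 30087 and 31770, and 11855, 13931, 13926 and 13831. Array 1 lay apart for Copb1, while the other 3 arrays were within 13831 and 13931.

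KDEL receptors catch chaperones that have slipped to the Golgi and hand them to COPI. Kdelr2 had 32640, 45575, 45987 and 51100, with array 1 the lowest, while its other probe set was lowest on array 3. Kdelr3 had 15096, 15618, 17471 and 22353, with array 4 the highest. Kdelr1 was more even, at 29402, 31528, 27306 and 27450, and the SDs of log2 signal were 0.28 for Kdelr2, 0.26 for Kdelr3 and 0.10 for Kdelr1.

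A different element marked some transport genes. The XBP1-binding element with the letters TGACGTGG was found in 4 of 44 promoters of the list (9.09%), compared with 193 of 27025 genes (0.714%). The 4 were Sec23a and Sec24d of COPII, Copb1 of COPI, and Kdelr3. No matches of different elements overlapped in the list. None of the 4 holds ERSE, and none of the 12 folding genes of the list with a promoter holds this element. The related genes followed this split only in part. ERSE was found in 3 of 74 related genes (4.05%), Ero1b and Creld2 of folding and Syvn1 of stress and degradation. The XBP1 element was found in 4 of 74 related genes (5.41%). They were Copb2, Arf1 and Gbf1 of the COPI step and Txndc5, a disulfide isomerase gene of folding. In Sec23a the match begins 7 bases after the start. The windows of the other 3 genes of the list are shown because their matches lie before the start, within 30 bases of it. The element is in capitals and is reverse-complemented in Copb1 and Kdelr3.
Sec24d, chr3:123267459-123267488, plus strand: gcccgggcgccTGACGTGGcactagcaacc
Copb1, chr7:114254690-114254719, minus strand: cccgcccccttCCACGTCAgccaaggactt
Kdelr3, chr15:79516367-79516396, plus strand: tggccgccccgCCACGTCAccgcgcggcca

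All 3 sensors of the unfolded protein response were above background. Ern1 (IRE1, the kinase and RNase that splices Xbp1 mRNA) had 7781, 8857, 7979 and 8003. Eif2ak3 (PERK, which slows translation) had 6614, 5306, 6079 and 6992. Atf6, released by proteolysis to enter the nucleus, had 3877, 4109, 3403 and 3773. Each call rests on part of the probe sets: 2 of 5 for Ern1, 1 of 3 for Eif2ak3 and 2 of 3 for Atf6.

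The transcription factors downstream were above background too. Xbp1, the factor made from the mRNA that IRE1 splices, had 56471, 58817, 58131 and 70386, and all 4 of its probe sets were above background. Splicing of Xbp1 was not analysed here. Atf4, translated when PERK is active, had 18357, 19594, 19788 and 27114, with array 4 the highest. A further Atf4 probe set above background had 10068, 8053, 7750 and 6988, with array 4 the lowest. The remaining Atf4 probe set was over the threshold on 0 arrays. Ddit3 (CHOP, a factor of prolonged stress that promotes cell death) had 3141, 3135, 3505 and 1593. On array 4 its signal was 1.26 times the threshold, the closest of any called gene of the list, and its limma adjusted p was 1.66e-06. The other Ddit3 probe set was over the threshold on 0 arrays.

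The ER-anchored factors Creb3l1 and Creb3l2 varied little between arrays, with SDs of log2 signal of 0.13 and 0.14. Creb3l1 (OASIS), which in mouse osteoblasts drives type I collagen production, had 16233, 17244, 15643 and 19126. Creb3l2 (BBF2H7), which in mouse chondrocytes turns on Sec23a, had 14232, 13612, 16830 and 16033. Herpud1, a stress-induced component of ER-associated degradation, had 5780, 3565, 5198 and 5279, with array 2 the lowest. Its other probe set had 2913, 2954, 2909 and 3089, an SD of log2 signal of 0.04.

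Herpud1 was the only gene of the list whose promoter held a pair of different stress elements. ERSE-II, with the letters ATTGGNCCACG, was present in Herpud1 and Dnajb11, 2 of 44 genes (4.55%), compared with 12 of 27025 (0.0444%). In Dnajb11 it begins 8 bases after the start. The ATF4-binding element with the letters TGATGCAA was present in Herpud1 alone, 1 of 44 (2.27%), compared with 279 of 27025 (1.03%). The windows below show both in Herpud1, the ATF4 element on the opposite strand.
Herpud1 ERSE-II, chr8:94386367-94386396, plus strand: ccgggcgctgATTGGgCCACGttggacact
Herpud1 ATF4 element, chr8:94386306-94386335, plus strand: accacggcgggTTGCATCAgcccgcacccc

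**Figure D4:**
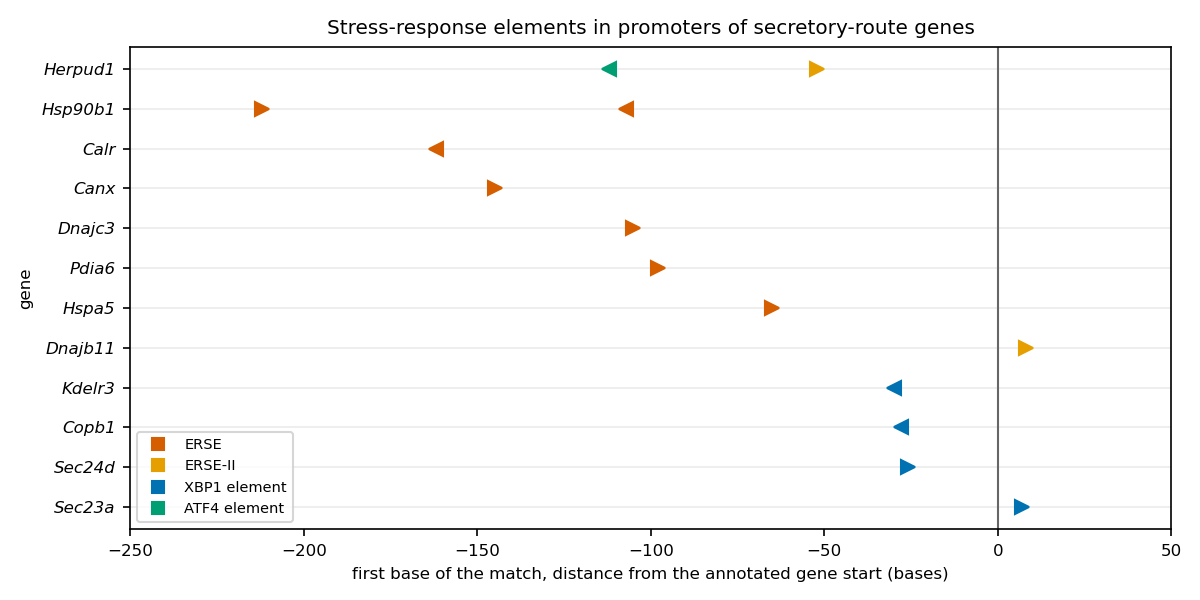
Position of each match in the promoters of 12 secretory-route genes (horizontal axis, bases from the annotated start, from 250 before to 50 after; arrowheads point right for the strand of the gene and left for the opposite strand). ERSE matches lie 65 to 212 bases before the start of folding genes, and the XBP1 element lies within 30 bases of the start in 4 transport genes.

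Other genes of the same steps were mostly above background. Of 88 measured related genes, such as further coat subunits and degradation factors, 85 were above background (96.6%). They included all 19 for translocation, 17 of 18 for folding, all 21 for COPII and cargo, all 12 for COPI and 16 of 18 for stress and degradation. The 2 genes of highest mean signal in each step were named. For folding they were Ppib, a prolyl isomerase of collagen folding, at 83388 ± 8953 and Manf, a secreted stress-induced protein, at 28091 ± 2124 (SD, n = 4). For translocation they were the oligosaccharyltransferase subunit genes Ostc at 47441 ± 3091 and Stt3b at 43006 ± 3554. Arf1 and Arf4, GTPases that recruit COPI, had 68846 ± 8592 and 43557 ± 4744, and Tmed9 and Sar1a, the GTPase of COPII, had 36829 ± 2765 and 35488 ± 3133. Derl1, of ER-associated degradation, had 26823 ± 1354, and Mbtps1, the protease that cleaves Atf6, had 24237 ± 1583.

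The related genes not above background were Ero1b, Atf3 and Trib3. The last 2 encode stress factors of the PERK and Atf4 branch. Atf3 had 1287, 916, 1546 and 1428, over the threshold on 3 arrays, with a limma adjusted p of 0.495. Trib3 had 818, 426, 269 and 219, over it on 0 arrays. Other targets of that branch, chosen after their values were seen, did pass. Chac1 had 5813, 5292, 5850 and 5721, and Ppp1r15a, the phosphatase subunit that ends the translation block, had 5703, 4758, 3188 and 4560.

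Most paralogues known mainly from other tissues were not above background. Of 12 measured, 1 was above background, Sec61a2, the second Sec61 pore gene, at 3352, 3886, 3322 and 2685. Both of its probe sets carry a shared-sequence suffix, which is _a_at for the values given. Creb3l3, of liver and gut, had 1916, 2604, 1640 and 575, over the threshold on 3 arrays. Derl3 was over it on 2, as given above, and the remaining 9 on 0. They were Ern2 of gut epithelium at 46.5 ± 6.58, Creb3l4 at 427 ± 320, Pdia2 of pancreas at 648 ± 213, Agr2 of mucous cells at 544 ± 325, Tmed6 at 116 ± 18.7 and Lman1l at 471 ± 328 (SD, n = 4). The testis genes among them, Pdilt, Calr3 and Clgn, had 501 ± 262, 397 ± 286 and 319 ± 214.

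Markers of other secretory cells were also looked at, since plasma, pancreatic acinar and salivary cells use the same machinery. None of 12 was above background, and limma called 0, with 0 at an unadjusted p under 0.05. Chosen after its values were seen, Mzb1, of plasma cells, had 1114, 864, 1437 and 978, over the threshold on 2 arrays. Cela1 and Bhlha15 were over it on 1 array each, and the other 9 on 0.

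The arrays were not equally bright for the list. Array 4 gave the highest of the 4 signals for 22 of the 49 genes above background (44.9%), compared with 34.6% of all genes above background. After quantile normalisation the counts were 16 of 49 (32.7%) and 32.5%. As deposited, the median deviation on array 4 from a gene's own mean was 0.07 in log2 for the list and 0.02 for all genes above background, and after quantile normalisation it was 0.01 and 0.02. The stress genes kept a deviation of 0.11 on array 4 under both scalings. The COPI and retrieval genes had 0.13 as deposited and 0.09 after quantile normalisation on array 4, and -0.12 and -0.11 on array 1. On array 4 the COPII and cargo receptor genes had 0.09 and 0.03, also the highest of the arrays under both scalings. The ratio of 3′ to 5′ signal of the Gapdh control was 0.883 on array 4, against 0.740 to 0.747 on arrays 1 to 3. For the actin control this ratio was 1.17 on array 4, within the 1.10 to 1.19 of arrays 1 to 3. The part of RNA quality in these deviations was not tested.

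**Figure D5:**
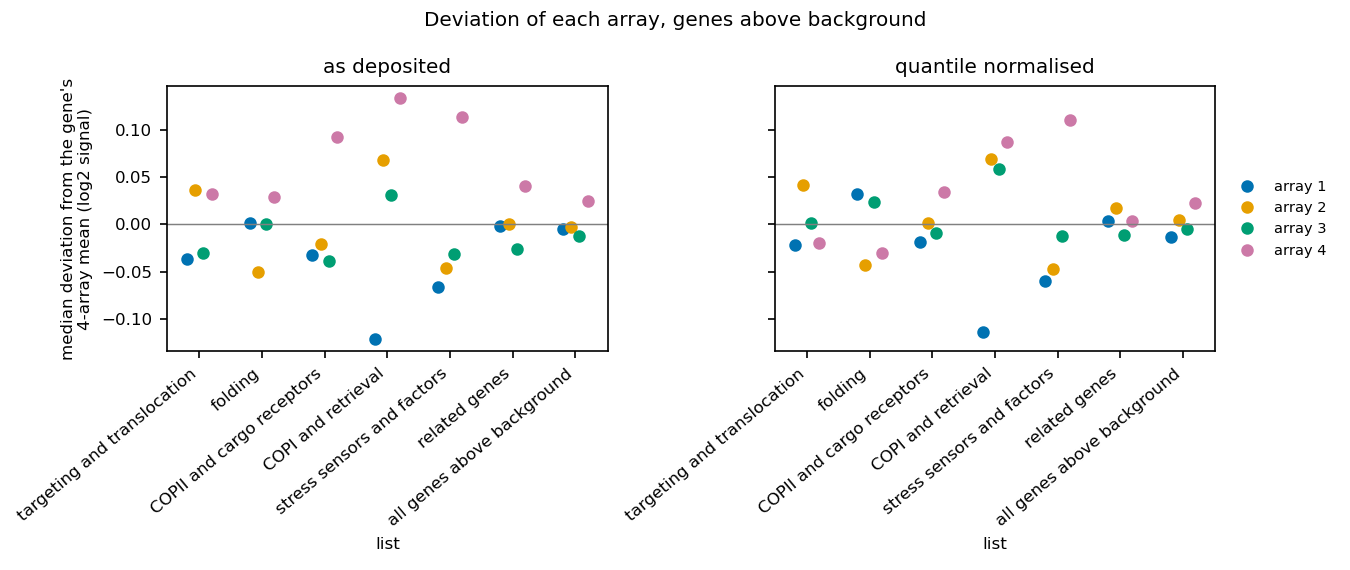
Median deviation of each array from the genes' own 4-array mean (vertical axis, log2 signal), for the genes above background in each step, the related genes and all genes, as deposited at left and after quantile normalisation at right. Array 4 lies above the other arrays in both panels for the stress genes, the COPI and retrieval genes and the COPII and cargo receptor genes. Its values for folding and translocation genes drop below 0 after normalisation.

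Agreement between arrays was close for the list. The median SD of log2 signal was 0.12 for the 49 genes above background, compared with 0.16 for all genes above background, and ranged from 0.03 in Spcs2 to 0.52 in Ddit3. The 2 medians come from genes of different signal, and their difference was not tested. Of 30 genes with several own probe sets, 17 had all of them above background and 13 had some, against 1820 and 4342 of 9012 genes overall.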

How the data were processed

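RNA of 1 pool of mouse molars was measured on 4 arrays. The deposited table holds signal intensity values on a linear scale for 45101 probe sets, made by the authors with MAS5 per the submitters' processing notes. Trimmed by 2% at either end, every array averaged 2500, the mark of linear scaling. Depth does not apply to arrays, and their number limits the precision.

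By the annotation of the platform, 34958 probe sets name 1 gene, 932 several and 9211 none. No coordinates are given for them. List symbols absent from it were updated through RefSeq synonyms for 4 genes. Calls used log2(signal / threshold), tested with limma 3.58.1 in R 4.3.3 with a mean-variance trend, on 1 probe set per gene over 18194 genes. The script was tested on simulated data. Alternatives were other percentiles, a testis and retina background set, a call on at least 3 arrays, limma, the top or median probe set, quantile normalisation, probe sets without the suffixes _s_at, _x_at and _a_at, and leaving out each array.

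The members and lists were chosen with earlier results of these data known. The genes the results turn on were, per step, the 3 of highest mean signal and those not above background, with an SD of log2 signal over 0.5 or with probe sets that differ in call, and further the 2 of highest mean signal and up to 3 not above background of each related list, and all paralogues. The remaining members given array by array were chosen after their values were seen. Promoters are RefSeq sequences of GRCm38.p6, with 8 of the 52 genes not in that table. Protein sequences were not used here.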

Additional observations from a re-analysis of the deposited data

Results flagged for a closer look

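In 3 of 81 sets of 4 log2 signals, 1 array lay apart from the other 3 by a gap test that flags about 1 in 20 sets by chance (4.05 of 81). Ddit3 was lower on array 4, at 10.64, against 11.61 to 11.78 on the other arrays. Copb1 was lower on array 1, at 13.53, against 13.76 to 13.77. Sar1a was higher on array 4, at 15.29, against 15.04 to 15.07.

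A signal also appeared in probe sets that the gene counts do not use. Of 15 probe sets naming a gene of the list together with another gene, 13 were above background on all 4 arrays. They included 6 for Tmed2, 4 for Tmed10, 2 for Srp54a and 1 for Sec61g.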

How the results depend on the processing

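The count of 49 of 50 secretory-route genes and the counts of 4 of the 5 steps and of the related genes stayed within 1.5 times their value under every alternative run. Counts this near their maximum can hardly leave that range, so staying in it says little. By the median probe set they fell to 46 of 50 for the list, 6 of 9 for stress genes and 73 of 88 for related genes. That setting called 39.3% of all genes. Using only probe sets without shared-sequence suffixes left 38 genes of the list measured. The translocation count was then 8 of 9 because fewer genes had a probe set, and Rpn1 turned to -3.28 in log2 signal over the threshold. That setting gave a median log2 signal of 13.87 for the list, and the median probe set gave 14.04. By the median probe set Ern1, Eif2ak3 and Ddit3 turned to -0.40, -3.38 and -0.72. In these genes 2 of 5, 1 of 3 and 1 of 2 own probe sets were above background. Why the probe sets of a gene differ was not tested. The paralogue count of 1 was 3 with the threshold at the 75th percentile (Creb3l3 and Derl3 added), 2 on at least 3 arrays (Creb3l3 added), 0 of 9 without suffixes, and 1 to 2 when an array was left out, with Creb3l3 added without array 4. The count of 0 markers of other secretory cells was 3 at the 75th percentile (Mzb1, Cela1 and Bhlha15). Of 638 values for single genes of the list, 634 kept direction and call. No paired analysis was possible because all arrays belong to 1 group. Arrays of 1 pool give no error between animals, and dim signals near the threshold are noisy.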
